A study of Drosophila melanogaster with 12 samples.

Results

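The long non-coding RNA genes of Drosophila melanogaster described here are those whose symbol in the BDGP6 annotation starts with "lncRNA:" and that lie on chromosome arm 2L or on the outer end of 3L, where coordinates of the deposited files and of the annotation coincide. A gene was kept when at least 20 poly(A) end reads on its own strand, pooled over all 12 libraries, fell between its start and 200 nt past its end. This gave 290 members of 595 genes with such a symbol, among 4007 genes counted in these regions, of which 3244 encode proteins. Below, the prefix "lncRNA:" is left out of their symbols. At the threshold, CR44511 and CR44900 held 20 reads and CR44346 held 21, while CR44919, CR44978 and CR44985 were left out with 19 reads each. No read fell in 78 of the candidates.

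Long non-coding RNAs are transcribed and mostly capped, spliced and polyadenylated like messenger RNAs, but hold no long conserved reading frame. Some act in the nucleus on chromatin or on neighbouring genes, some are precursors from which microRNAs or small nucleolar RNAs are cut, and for most fly loci no function is known. In flies the testis is the organ in which the largest number of them is transcribed.

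Heads and bodies of adult flies were profiled by 3'READS and 3'READS+, in which RNA fragments are selected by their poly(A) tail, so that a read marks the 3' end of an RNA. The 12 libraries were 4 of heads and 4 of bodies of w1118 flies, the wild type, and 2 of heads and 2 of bodies of RpII215 flies, which carry the C4 allele of the gene for the largest subunit of RNA polymerase II. The C4 allele is known for a polymerase that elongates slowly. Genotype and strain background cannot be told apart in this design, and the labels do not state the sex or the age in days of the flies. Nothing in the labels says that replicates came from separate animals; the p-values below then measure only the spread between these libraries, which may be technical. Wild-type replicates 1 and 2 carry sample numbers far from those of replicates 3 and 4 and of the mutant libraries, and these 2 ranges are called block 1 and block 2.

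Libraries held 2219693 to 9062730 reads, of which 4.50% to 26.0% were mitochondrial. In the regions used, 90.1% of reads fell to 1 gene, 8.77% were shared by genes on the same strand and were left out, and 1.16% lay outside genes. Levels are given in CPM, counts scaled to the reads assigned to genes of these regions with TMM factors. Because 1 end is read per RNA, CPM is not divided by gene length. Mutant body 2 correlated more with wild-type body 4 (r = 0.910 over log2 levels of genes) than with mutant body 1 (r = 0.885), and counts of calls in mutant bodies are given with and without each library.

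The members were short and simple genes. Their median length was 721.5 nt (201 to 42551 nt), 159 had a single exon and 131 were spliced. They held 174165 reads under the rule and 164816 that no other gene on the strand could claim. For 35 members no read was their own, 33 of them inside the span of a coding gene on the same strand, and these were not tested. Their shared reads were more frequent in bodies for 31 and in heads for 4. Of the other 255, all but 1 kept at least 20 reads. Reads were concentrated, since 3 members held 67.6% of them, 10 members held more than 1000 and 123 more than 100.

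The main poly(A) site often lay away from the annotated end. Neighbouring positions up to 24 nt apart were treated as 1 site. The main site of 97 of 255 members (38.0%) was within 24 nt of an annotated transcript end, that of 66 lay farther upstream (50 of them by more than 100 nt), and that of 92 lay farther downstream. One site of at least 5% of the reads was found in 94 members, 2 in 83 and 3 or more in 78. The median share of the main site was 84.4%.

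Members were read mostly in bodies. At least 1 read was found for 180 to 239 members in each of the 6 body libraries and for 68 to 135 in each of the 6 head libraries, so the ranges did not overlap. In heads 59 of the 255 members had no read in any library, and in bodies none was without a read. Mean CPM was more than 10 times higher in bodies for 188 members, and higher in heads for 25 (9.80%). It was more than 10 times higher in bodies for 624 of 2660 coding genes and 35 of 64 antisense RNA genes. Of these, 36 coding genes (1.35%) and 6 antisense RNA genes (9.38%) had no read in heads. Median own reads were 76 for members, 885 for coding genes and 79.5 for antisense RNA genes, and genes with few reads are more easily unread. The median share of a member's level found in heads was 2.34%. The same share was 53.5% for coding genes and 6.81% for the 64 annotated antisense RNA genes with reads of their own. Coding genes with at least 20 reads had a higher mean in heads in 54.7% of cases.

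**Figure D1:**
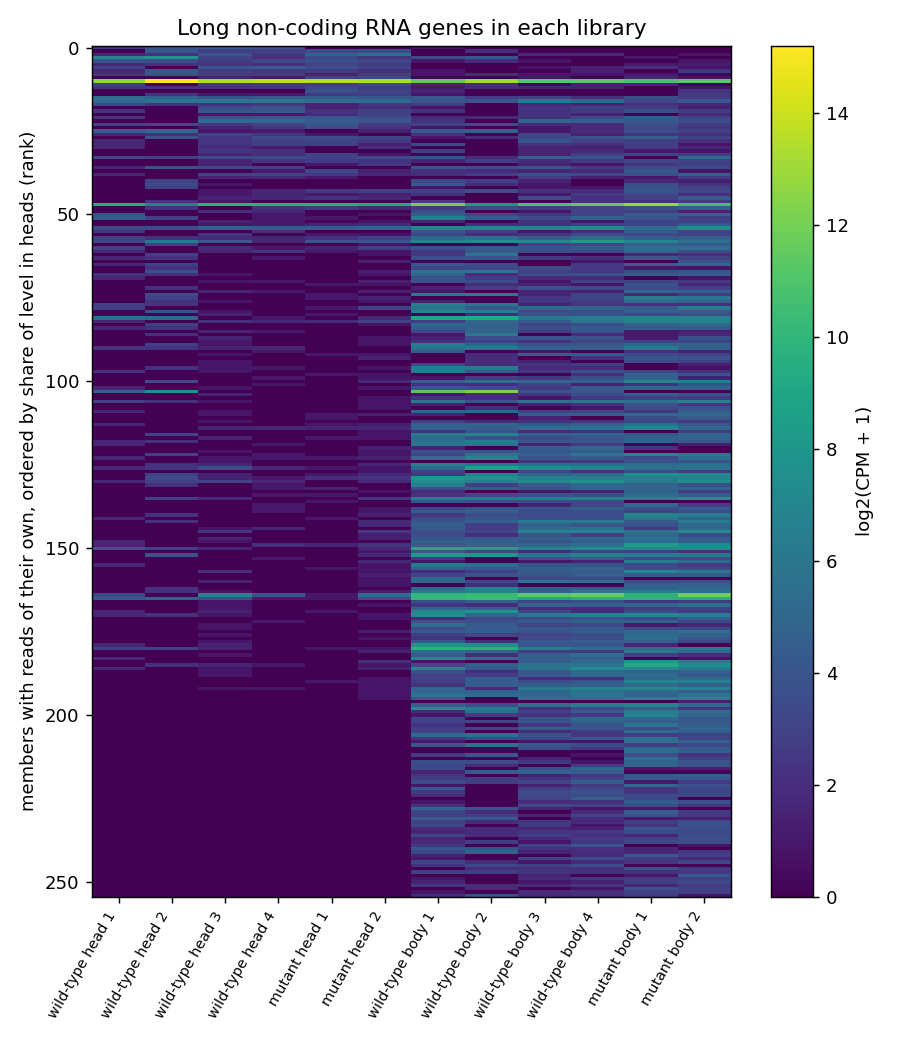
Level of the 255 members with reads of their own (rows, ordered by the share of their level found in heads) in each of the 12 libraries (columns), as log2(CPM + 1). In the lower rows the 6 head libraries are at 0, with 59 members unread in heads, while the body libraries hold reads.

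CR42862, CR31781 and CR43239 were the most read members. CR42862 (3L, 224106 to 230964, plus strand, 80037 own reads) partly overlaps the coding gene CG33229 on its strand. It had 6279, 37771, 10540 and 13382 CPM in wild-type heads 1 to 4, 11114 and 10080 in mutant heads, 2777, 8125, 2315 and 2564 in wild-type bodies, and 1976 and 2535 in mutant bodies. The mean of heads exceeded that of bodies in both blocks and genotypes, but the first wild-type head lay below the second wild-type body. In wild type the log2 fold change of heads over bodies was 1.95 (SE 0.69, edgeR adjusted p = 0.0432), and the call was lost when any of 5 libraries was left out (adjusted p 0.0758 to 0.128). In the mutant it was 2.23 (SE 0.35, edgeR adjusted p = 0.00114). Nearly all of its reads (98.7%) ended at 1 site, 2 nt from the annotated end.

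CR31781 (2L, 16869346 to 16878300, plus strand, 22540 reads) had 699, 101, 803 and 877 CPM in wild-type heads and 3644, 277, 1806 and 2917 in wild-type bodies. In mutant heads it had 775 and 599, and in mutant bodies 7449 and 1579. Body 2 of the wild type fell among the heads, and the wild-type difference missed the threshold (log2 −2.11, SE 0.79, edgeR adjusted p = 0.0533). In the mutant the groups did not overlap (log2 −2.81, SE 0.73, edgeR adjusted p = 0.0114).

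CR43239 (2L, 17353730 to 17354668, minus strand, 14934 reads) had 8.37, 0, 109 and 15.1 CPM in wild-type heads against 1024, 1285, 2677 and 3426 in bodies. Every body library exceeded every head library (log2 −6.60, SE 1.01, edgeR adjusted p = 5.5e-04). Mutant bodies differed between themselves, with 898 and 4057 CPM, and mutant heads had 0.938 and 43.2.

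Heads and bodies of wild type were then tested over all genes of the regions, with the block as a term, to see which members differ between the tissues. In this fit 60 members passed the filter on low counts, most of them through their reads in bodies, so the counts of calls describe the members that could be tested. Of these, 2 were higher and 52 lower in heads, against 17.2% higher and 29.9% lower (47.2% in either direction) among all 2314 genes tested. The 54 calls became 174 without the filter, and 91 to 93 when wild-type head 1, 2 or 4 was left out and more members passed the filter. Shares called over all genes under these alternatives are not given, so the counts show only how far the number of calls moved. The median log2 fold change of the 60 members tested was −5.24, that of all genes tested 0.05. All 54 had the same direction in both blocks taken alone, with a median log2 difference (1 CPM added) of −4.12 in block 1 and −4.11 in block 2. The calls came from these same libraries, so this describes them and is not a separate test. Markers of other organs moved with this difference, as given below, and their part in it was not tested.

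Among the 8 lowest in heads, 6 had no read in any wild-type head. CR44606 (2L, 20947135 to 20948170, minus strand) had 57.7, 39.5, 33.4 and 62.1 CPM in bodies, at least 45.9-fold more than a floor of 3 reads over the head libraries allows (edgeR adjusted p = 3.1e-04). CR43826, antisense within beat-Ic, had 22.5, 11.3, 42.4 and 79.7 CPM in bodies (at least 37.2-fold, and at least 24.2-fold without body 4, edgeR adjusted p = 4.6e-04). CR43713 had 29.7, 25.4, 30.7 and 57.0 (at least 34.0-fold, edgeR adjusted p = 3.8e-04).

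The same held for CR45294 (at least 23.8-fold, and at least 12.9-fold without wild-type body 2, which had 59.3 CPM against 10.1 to 15.3 in the others), CR46495 (at least 21.0-fold), which lies antisense to the clock gene tim, and CR44576 (at least 18.5-fold). Their edgeR adjusted p ran from 3.7e-04 to 0.00428. In mutant heads, CR43826 and CR45294 again had no reads, while the other 4 had 1 or 2 reads over both libraries. CR44744, antisense to the BMP receptor gene tkv, had 138, 16.9, 62.2 and 162 CPM in bodies and 2.09, 0, 0.858 and 0 in heads (log2 −6.95, SE 0.95, edgeR adjusted p = 3.05e-04).

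Members with many reads were often read in both tissues. CR43852 had 896, 768, 73.0 and 44.4 CPM in wild-type bodies and 6.28, 6.93, 1.72 and 0 in heads (log2 −6.85, SE 0.63, edgeR adjusted p = 6.8e-05). CR44480 had 1090, 1376, 481 and 804 CPM in bodies and 16.7, 27.7, 12 and 1.08 in heads (log2 −6.36, SE 0.69, edgeR adjusted p = 1.1e-04). Bodies exceeded heads without overlap in both, and heads and bodies alike were higher in block 1 than in block 2.

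CR44311 (2L, 3702614 to 3702947, plus strand) starts 366 nt past the end of CG43145, in a row of genes that includes the seminal fluid protein gene Sfp24C1. It had 573, 376, 92.0 and 139 CPM in wild-type bodies, 16.7, 6.93, 1.72 and 0 in wild-type heads, 0 and 2.36 in mutant heads and 123 and 191 in mutant bodies. No head library reached any body library (wild type log2 −6.08, SE 0.55, edgeR adjusted p = 6.6e-05). CR43356, which lies antisense to crok and starts back to back with bru1, fell by 5.05 on the log2 scale (SE 0.57, edgeR adjusted p = 1.3e-04), and CR42859 fell by 6.03 (SE 0.65, edgeR adjusted p = 9.9e-05).

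let7C (2L, 18455717 to 18473132, plus strand) was the other member called higher in wild-type heads. It is the host of mir-100, mir-let7 and mir-125, microRNAs that time late developmental transitions and act in the adult nervous system of flies. It had 41.8, 24.3, 12 and 16.2 CPM in wild-type heads and 16.2, 5.65, 7.21 and 3.35 in bodies. The ranges overlapped (log2 1.20, SE 0.40, edgeR adjusted p = 0.0344), and the call was lost without any 1 of 6 libraries (adjusted p 0.0619 to 0.134). In the mutant it had 21.6 and 14.9 CPM in heads against 12.4 and 4.66 in bodies, with no call (log2 1.08, edgeR adjusted p = 0.168).

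Samples of whole bodies hold organs that heads lack, and in such bulk samples fewer cells of a type and less RNA per cell cannot be told apart. Markers of testis and sperm (9 of 10 listed genes lie in these regions with reads) summed to 16.2 to 149 CPM in heads and 1593 to 3644 in bodies. Accessory gland markers (7 of 7 genes) summed to 38.4 to 676 in heads and 10009 to 28731 in bodies. The ovary and eggshell list (9 of 11 genes with reads) summed to 20.8 to 249 CPM in heads and 33.9 to 693 in bodies, which overlapped. Most of that sum was grk, with 22.6 to 612 CPM in bodies and 13.9 to 229 in heads, and aub had 4.50 to 49.8 CPM in bodies. Its eggshell genes Vm26Aa, Vm26Ab, Vm26Ac, Vm34Ca and psd had at most 1.68 CPM in any body library and up to 52.3 in heads. nht, which encodes a testis-specific subunit of a basal transcription factor, had no reads in all 6 head libraries.

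The summed level of all members was 7578 to 39005 CPM in heads and 11028 to 22337 in bodies, which overlapped. Apart from the 3 most read members, the summed level was 410 to 1133 CPM in heads and 4231 to 12650 in bodies. As a share of assigned reads this was 0.0376% to 0.107% in heads and 0.432% to 1.61% in bodies. Within wild-type bodies, block 1 had the higher sums, 10983 and 12650 against 4231 and 5748 in block 2, and testis markers were at 2368 and 3644 against 2012 and 2514. Accessory gland markers went the other way, with 12030 and 10009 CPM in block 1 and 22098 and 28731 in block 2. Photoreceptor markers, which mark eye tissue, summed to 3683 and 5077 CPM in block 1 bodies and 65.8 and 79.7 in block 2 bodies. Most of the block 1 sum was Arr1 (3433 and 4746 CPM), and ninaD went the other way (3.60 and 8.47 against 38.8 and 22.6). The part of these markers in the members' sums was not tested.

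**Figure D2:**
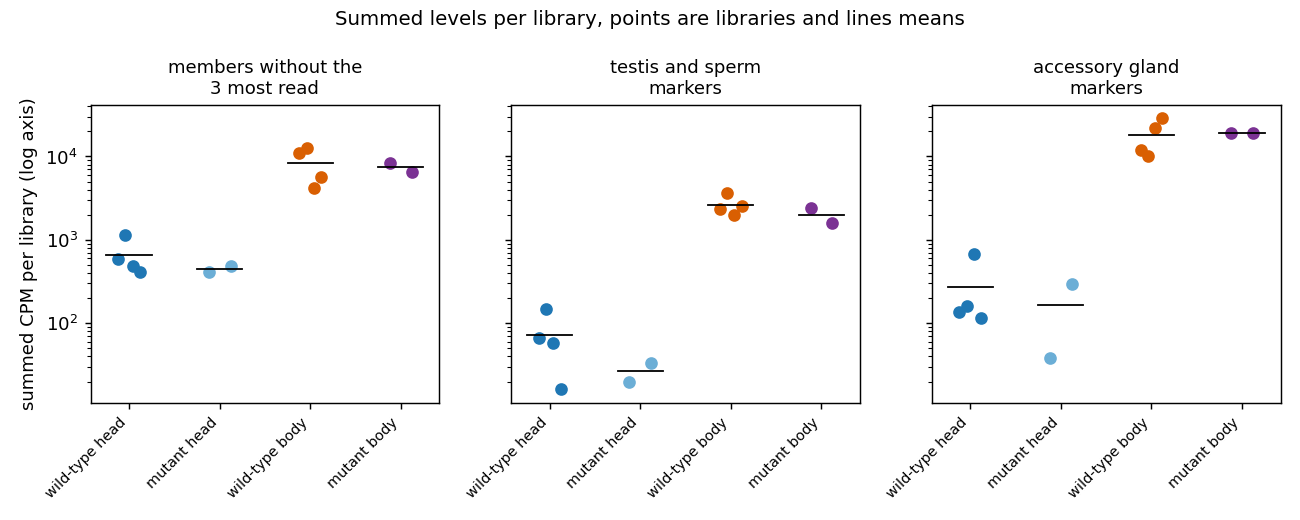
Summed CPM per library (log axis) of the members without their 3 most read genes, of 9 testis and sperm markers and of 7 accessory gland markers, by group; points are libraries and lines are means. In all 3 sets every body library (lowest member sum 4231 CPM) lies above every head library (highest member sum 1133 CPM).

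The same tissues were compared within the mutant, between mutant heads and mutant bodies. The fit also held the wild-type libraries of block 2, which the wild-type contrast uses. The filter, the scaling and the estimate of spread are therefore partly shared. Of 159 members tested, most of which again passed the filter through bodies, 5 were higher and 133 lower in heads, against 20.4% higher and 34.5% lower (54.9% in either direction) among 2681 genes tested. The median log2 fold change of the members was −5.69, that of all genes −0.05. All 54 members called in wild type were tested here, and 49 were called in the same direction and 0 in the opposite one. The like share of all genes called in wild type is not given. Among the exceptions, CR44490 had no read in any mutant library and CR45346 had 1 read in mutant heads and none in mutant bodies. No read was found in mutant heads for 53 of the 159. The direction and the median therefore describe members that could be tested, as in wild type. Of the 13 named members called in this contrast, 13 passed without mutant body 1 and 12 without mutant body 2.

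**Figure D3:**
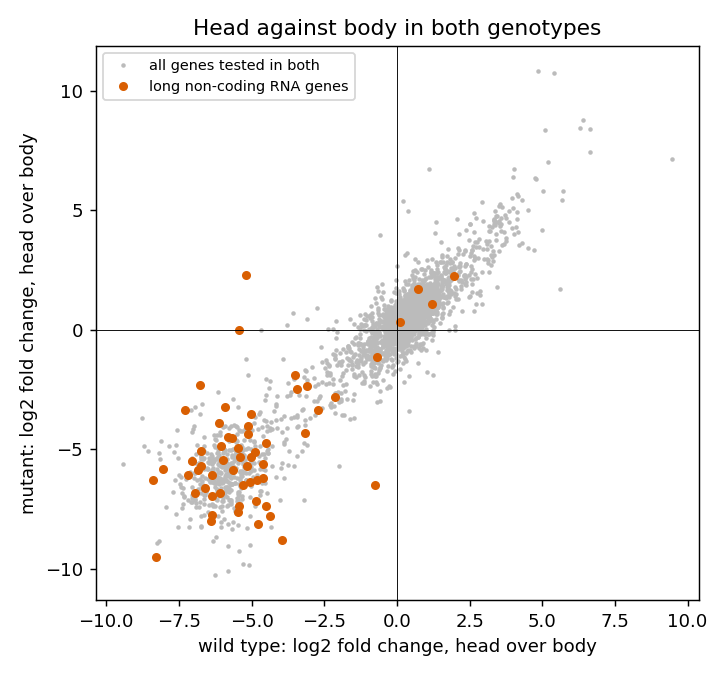
Log2 fold change of heads over bodies in wild type (x axis) and mutant (y axis), for 2300 genes tested in both (grey) and the 59 members among them (orange). Of these members, 53 lie below 0 on both axes and 4 above 0 on both.

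Of the members lowest in mutant heads, CR45448 had 577 and 176 CPM in mutant bodies and 0 and 0.786 in heads (log2 −9.51, SE 1.03, edgeR adjusted p = 4.2e-04). In wild-type bodies it had 9.01, 25.4, 53.2 and 55.4 CPM. The other 7 had no read in mutant heads, and their folds are bounds against the floor of 3 reads. CR43821, antisense to the synaptotagmin gene Syt1, had 88.1 and 51.3 CPM in mutant bodies (at least 54.4-fold lower in heads), CR44485 had 50.8 and 26.4 (at least 30.1-fold) and CR44308 had 48.7 and 24.9 (at least 28.7-fold). In the other 4 mutant body 1 was far above mutant body 2 and its omission lowered the bound by over 1.5 times. CR43826 had 117 and 36.5 CPM (at least 59.9-fold, and at least 28.5-fold without body 1), and CR44823 had 105 and 30.3 (at least 52.6-fold and 23.6-fold). CR44219 had 69.5 and 24.1 (at least 36.5-fold and 18.8-fold), and CR44699 had 57.0 and 18.6 (at least 29.5-fold and 14.5-fold). The edgeR adjusted p of the 7 lay between 0.00127 and 0.00522, and all passed without either mutant body library.

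Besides CR42862, 4 members were higher in mutant heads. CR44605 had 25.3 and 45.6 CPM in mutant heads and 0 and 0.777 in mutant bodies (log2 6.06, SE 1.02, edgeR adjusted p = 0.00156). In wild-type heads it had 2.09, 3.47, 13.7 and 4.31 CPM. CR13130, which overlaps the neurogenic gene bib on the other strand, had 10.3 and 10.2 CPM in mutant heads and no reads in mutant bodies (at least 7.70-fold, edgeR adjusted p = 0.00336).

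CR43883 had 12.2 and 7.86 CPM in mutant heads against 3.11 and 0.777 in bodies (log2 2.37, SE 0.70, edgeR adjusted p = 0.0207). The call was lost without mutant body 2 (log2 1.36, adjusted p = 0.148), and with reads up to 1000 nt past the gene end the direction turned (log2 −0.34, adjusted p = 0.592). CR43411, antisense to osp, had 42.2 and 40.1 CPM against 8.30 and 16.3 (log2 1.72, SE 0.46, edgeR adjusted p = 0.0134). In wild type it had 35.6, 58.9, 66.1 and 62.5 CPM in heads and 15.3, 14.1, 64.0 and 37.7 in bodies, which overlapped and did not pass (edgeR adjusted p = 0.182).

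Hosts of small RNAs were read at low levels when only reads of their own were counted. CR45184, inside Sf3b3, hosts 5 small nucleolar RNAs and had no reads of its own. The 416 reads in its span were shared, with a mean of 62.1 CPM in wild-type heads and 38.3 in wild-type bodies. CR45345, the host of mir-375, had 7.21, 5.65, 16.2 and 37.7 CPM in wild-type bodies and 38.4 and 16.3 in mutant bodies, and 1 read over all heads (mutant at least 21.3-fold lower in heads, and at least 12.7-fold without mutant body 1, edgeR adjusted p = 0.00289). CR44909, the host of mir-288, was lower in mutant heads too, with 0.938 and 0.786 CPM against 9.33 and 6.99 in bodies (log2 −3.09, SE 1.12, edgeR adjusted p = 0.0451). These values rest on its own reads only. CR44909 overlaps CR43608 on its strand, and the 224 reads in the span of CR43608 were shared and left out.

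The other hosts were read in both tissues. CR43314, from which mir-bft comes, a microRNA that protects sensory organ cells from death, had 0 to 13.9 CPM in the 6 heads and 0.901 to 23.9 in the 6 bodies. CR45361, the host of mir-1, the muscle microRNA, had 0 to 7.50 CPM in heads and 0 to 14.4 in bodies. CR43334, the host of mir-ban, the growth-promoting bantam microRNA, had 0 to 6.56 in heads and 0 to 7.26 in bodies. CR43857, the host of mir-275, had 0 to 8.44 in heads and 0.777 to 15.6 in bodies. In each of these the ranges of heads and bodies overlapped. Over the 7 hosts with reads the median share of the level in heads was 37.6%.

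TS11 and TS4 carry a name as well. TS11 had 56.8 and 53.7 CPM in bodies of block 1, 1.8 and 5.03 in wild-type bodies of block 2 and 0 and 1.55 in mutant bodies. TS4 went the other way, with 1.68 to 2.82 CPM in the 4 wild-type bodies and 15.6 and 10.1 in mutant bodies. TS4 had no read in any head, and TS11 had 2.09 CPM or less in each.

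Mutant bodies were compared with wild-type bodies of block 2 to ask which members differ with the polymerase allele or its strain. Of 159 members tested, 9 were higher and 3 lower in mutant bodies, against 1.34% higher and 1.23% lower (2.57% in either direction) of 2681 genes. The median log2 fold change was 0.58 over the members and −0.00 over all genes tested, with 106 members above 0 and 51 below. At an unadjusted p under 0.05 there were 61 members, and 460 (17.2%) of all genes tested. In the 4 libraries compared, values did not overlap between genotypes for 93 of the 159 members tested, the 12 called members among them. With so few libraries such separation is common, and it adds no support to the calls. The like share of all genes is not given.

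These calls rest on pairs of libraries. Without wild-type body 3 or wild-type body 4 no member was called by edgeR, without mutant body 1 there were 2, and without mutant body 2 there were 46. Of the 11 named below by the rule, CR44736 alone passed without mutant body 1 (adjusted p 0.0366, the others 0.0556 to 0.102), and all 11 passed without mutant body 2 (adjusted p 0.00525 to 0.0272). Without any 1 of the 4 head libraries, which share the estimate of spread, 6 to 9 were called. DESeq2 called 24. A fit of all 12 libraries with a term per replicate number (the replicate block) called 58. It sets the mutant against wild-type libraries of the same replicate numbers, which are of block 1, so block and genotype cannot be told apart. Shares called over all genes under these alternatives are not given, so the counts show only how far the number of calls moved.

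Several of the members called higher were nearly unread in wild type. CR43621 (2L, 9584670 to 9586044, minus strand), near the glial regulator gene gcm, had 44.6 and 26.4 CPM in mutant bodies and no read in any other library (at least 27.2-fold higher, edgeR adjusted p = 0.0447). CR43988 (3L, 72196 to 73101, minus strand) had 25.9 and 25.6 CPM in mutant bodies, no reads in wild-type bodies 3 and 4 (at least 19.8-fold higher, edgeR adjusted p = 0.0337) and 2.82 CPM in wild-type body 2. CR44808, inside dpr3 on the other strand, had 93.3 and 38.1 CPM against 0.902 and 1.68 in the wild-type bodies tested (log2 5.59, SE 0.98, edgeR adjusted p = 0.0415).

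A pair of neighbours lay on the plus strand of 2L. CR44484 (3268269 to 3268646) had 36.3 and 42.0 CPM in mutant bodies and 2.70 and 3.35 in wild-type bodies of block 2 (log2 3.65, SE 0.58, edgeR adjusted p = 0.0333). CR44485 (3287822 to 3288591) had 50.8 and 26.4 CPM against 0.902 and 0.839 (log2 5.33, SE 0.82, edgeR adjusted p = 0.0382). Wild-type bodies of block 1, outside the test, had 7.21 and 22.6 CPM of CR44484, a mean of 14.9 between 3.03 in block 2 and 39.1 in the mutant. On the log2(CPM + 1) scale this was the 1 called member at which the block 1 mean was nearer to the mutant, and at the other 11 it was nearer to wild-type block 2.

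CR44603 had 31.1 and 25.6 CPM against 1.8 and 1.68 (log2 3.96, SE 0.71, edgeR adjusted p = 0.0366). CR44736 had 65.3 and 61.4 against 4.51 and 7.55 (log2 3.38, SE 0.48, edgeR adjusted p = 0.0221), CR43761 had 122 and 83.1 against 10.8 and 10.9 (log2 3.26, SE 0.58, edgeR adjusted p = 0.0417), and CR44979 had 122 and 95.6 against 10.8 and 15.9 (log2 3.04, SE 0.43, edgeR adjusted p = 0.0218). CR44979 lies in the axon guidance gene Lar on the other strand. All 9 were at 2.36 CPM or less in the mutant heads, so their levels in the mutant were seen in bodies.

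The 3 members called lower were nearly absent from mutant bodies. CR43412 had 28.8 and 18.4 CPM in wild-type bodies 3 and 4 and no reads in the mutant (at least 17.7-fold lower, edgeR adjusted p = 0.0491). CR45346 had 13.5, 14.1, 16.2 and 20.1 CPM in the 4 wild-type bodies and none in mutant bodies (at least 13.6-fold lower, edgeR adjusted p = 0.0366). CR43808, which starts back to back with bchs, had 159, 48.0, 20.7 and 22.6 in wild-type bodies and 0 and 0.777 in mutant bodies (log2 −5.32, SE 0.85, edgeR adjusted p = 0.0417). Summed markers of several cell types differed between the same 4 libraries without overlap, and their part in these differences was not tested. Fat body markers (2 of 3 genes with reads) summed to 188 and 272 CPM in mutant bodies against 14966 and 863 in wild-type bodies 3 and 4, and muscle markers (4 of 4) to 1002 and 1169 against 3826 and 2327. Glia markers (2 of 2) summed to 671 and 883 against 1430 and 1473, neuron markers (7 of 7) to 639 and 698 against 1152 and 855, and accessory gland markers to 19077 and 19317 against 22098 and 28731. Single genes did not all follow their sums. Most of the neuron sum was Rbp9 (460 and 436 against 750 and 566), while Gad1 was higher in the mutant (22.8 and 33.4 against 17.1 and 7.55). Values overlapped for the neuron genes nSyb and Ddc, the muscle gene Msp300, and Acp26Aa, Acp26Ab, Acp33A, Acp36DE and Acp63F. Sums overlapped for testis (2436 and 1593 against 2012 and 2514), ovary, photoreceptor and gut markers.

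**Figure D4:**
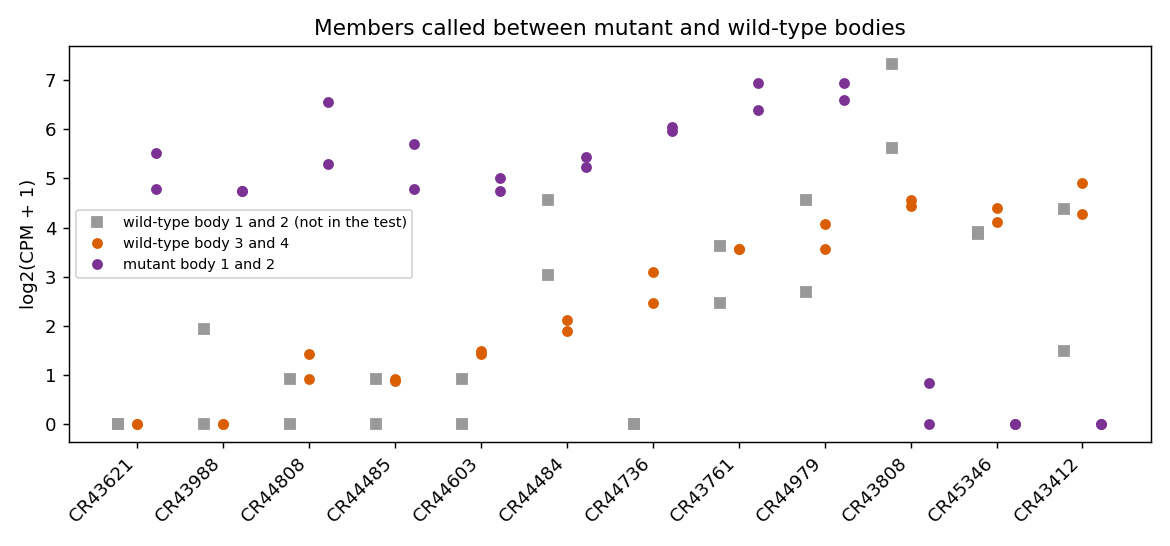
Level, as log2(CPM + 1), of the 12 members called between mutant and wild-type bodies, in wild-type bodies 1 and 2 (grey squares, not in the test), wild-type bodies 3 and 4 (orange) and mutant bodies (purple). The 9 members on the left are higher and the 3 on the right lower in both mutant libraries than in wild-type bodies 3 and 4.

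CR44490 (2L, 10886454 to 10887199, plus strand) was among the most read members in block 1 only. It had 2615 and 4297 CPM in wild-type bodies of block 1, 15.3 and 15.1 in those of block 2 and no read in mutant bodies. In heads it had 27.2 and 208 CPM in block 1 and no read in the other 4 libraries. Within each block of wild type bodies exceeded heads. In block 1, where CR44490 was read in heads, markers of the other tissue were also present. Photoreceptor markers had 3683 and 5077 CPM in bodies, and testis markers 67.0 and 149 CPM in heads. Heads without a read of CR44490 held body markers too. Their testis markers were at 57.5 and 16.2 CPM in wild type and 19.7 and 33.8 in the mutant. Accessory gland markers were at 138 and 159 CPM in block 1 heads, below wild-type head 3 (676) and mutant head 2 (292). Wild-type head 4 and mutant head 1 lay below both block 1 heads. The part of these markers in the head level of CR44490 was not tested. The difference between mutant and wild-type bodies of block 2 (at least 11.4-fold lower) missed the threshold (edgeR adjusted p = 0.0590).

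Other members of wild-type bodies also split by block. CR43852 had 896 and 768 CPM in block 1 and 73.0 and 44.4 in block 2, and CR43356 had 500 and 633 against 63.1 and 81.3. CR45448 went the other way, with 9.01 and 25.4 against 53.2 and 55.4. The labels do not say which of the protocols served for which library, and its part in these splits was not tested.

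In heads the mutant did not differ detectably at any member. Of 159 members tested, 0 were called by edgeR, with 9 at an unadjusted p under 0.05 and 1 called by DESeq2; among all 2681 genes 0.783% were called and 287 (10.7%) had such an unadjusted p. With the replicate block over all 12 libraries 15 members were called, again against wild-type libraries of block 1, so block and genotype cannot be told apart. No read was found for 53 of the 159 in mutant heads and for 71 in wild-type heads of block 2, and a member unread in wild-type heads could not have shown a fall. CR44605 (25.3 and 45.6 against 13.7 and 4.31 CPM) had the smallest p among members higher in the mutant (log2 1.97, SE 0.67, edgeR adjusted p = 0.295). CR45706, singled out after its values were seen for the smallest p of all members, had 4.18, 13.9, 18.9 and 12.9 CPM in wild-type heads and no read in mutant heads (edgeR adjusted p = 0.105). In bodies its reads were confined to 0.901 CPM in wild-type body 1.

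Whether the genotype difference itself differs between heads and bodies was tested as an interaction. By edgeR 0 of 159 members passed and 0% of all 2681 genes were called, while 10 members and 167 (6.23%) of all genes had an unadjusted p under 0.05. DESeq2 called 0 members. A difference between bodies that passed and one between heads that did not are therefore not shown to differ. Without mutant body 2, 3 members passed.

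Choice between poly(A) sites could be tested for few members, since the 2 most used sites had to hold a mean of 20 reads per library with at least 5% at the minor one. In wild type 18 members qualified, but 14 of them had at most 5 reads at these sites over all 4 heads and 2 of those had none, so few could be tested for a difference. Of the 18, 1 was called between heads and bodies, and 19.7% of 827 genes were called; the shares are not comparable at these depths. This was CR46529 (2L, 9747046 to 9747785, minus strand), which starts 54 nt past the end of the cytochrome P450 gene Cyp4e3. Its sites lie 257 nt apart, at 9747464 and 9747207.

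The distal site of CR46529 took 75.0%, 5.0%, 42.1% and 0% of reads in wild-type heads 1 to 4, on only 4, 20, 19 and 2 reads. In wild-type bodies it took 99.3%, 85.7%, 93.7% and 99.1%, on 63 to 432 reads. All heads were below all bodies (log2 odds ratio −6.04, SE 1.42, edgeR adjusted p = 0.0165). Mutant heads had 100% and 95% on 16 and 20 reads, in the range of bodies. The call was lost without wild-type head 3, head 4 or body 4 (adjusted p 0.0509 to 0.0681).

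Between mutant and wild-type bodies 17 members qualified and 1 was called, against 5.7% of 895 genes. CR44491 (2L, 10894644 to 10895344, minus strand) lies on the other strand a few kilobases beyond CR44490. Its distal site, 253 nt past the proximal one, took 100% and 77.3% in wild-type bodies 3 and 4 (24 and 22 reads) and 0% and 1.18% in mutant bodies (143 and 85 reads), a log2 odds ratio of −10.56 (SE 1.56, edgeR adjusted p = 0.00435). Its level was 21.6 and 19.3 CPM in wild-type bodies 3 and 4 and 148 and 68.4 in mutant bodies, which did not pass the test (edgeR adjusted p = 0.113). In wild-type bodies 1 and 2 the distal site took 33.3% and 0% of only 3 and 1 reads. With all 12 libraries and the replicate block the site difference did not pass (edgeR adjusted p = 0.181). That fit sets the mutant against wild-type libraries of block 1, where the sites held so few reads. It cannot decide the comparison with block 2. In heads the genotypes could hardly be compared, since 13 of the 17 members had at most 7 reads over the 4 heads and 2 of those had none. edgeR called 0 of them, 0 had an unadjusted p under 0.05, limma called 0, and 3.69% of 895 genes were called.

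**Figure D5:**
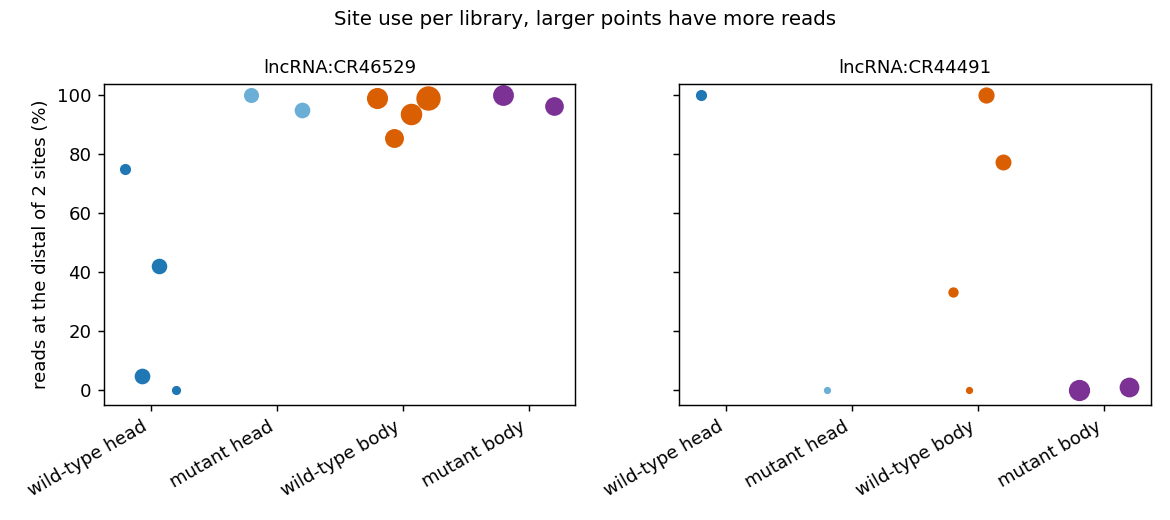
Percent of reads at the distal of 2 sites in each library with reads, for CR46529 and CR44491; point size grows with the number of reads. CR46529 is at 75.0% or less in wild-type heads and at 85.7% or more elsewhere; CR44491 is at 77.3% or more in wild-type bodies 3 and 4 and at 1.18% or less in mutant bodies.

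Other members with many reads at both sites did not pass the test. The distal site of CR43239 took 26.3%, 7.92%, 5.01% and 4.11% in wild-type bodies and 25.0%, 11.3% and 8.33% in the 3 wild-type heads with reads (edgeR adjusted p = 0.405). CR43803 had 37.0%, 34.4%, 23.1% and 21.2% in wild-type bodies and 16.0% and 22.9% in mutant bodies (edgeR adjusted p = 0.931). CR44744 had 28.1% and 21.5% in wild-type bodies of block 2 and 59.9% and 30% in mutant bodies, without overlap but not past the test (edgeR adjusted p = 0.385). Wild-type body 1 had 97.0% at that site, above both mutant bodies.

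Members of each annotated kind had a median level weighted to bodies. The median share of the level in heads was 2.16% for the 179 members that overlap no other gene and 2.90% for the 72 with reads that overlap a gene on the opposite strand. It was 1.82% for single-exon and 3.02% for spliced members, 2.63% for members divergent from a coding gene and 1.82% for those downstream of one. Members over 2000 nt had 5.64%, against 2.20% from 500 to 2000 nt and 1.94% below. It was 17.6% for the 7 members with reads that overlap a transposon. These groups were not tested against each other.

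Fold changes of members and of their nearest coding genes were set side by side. Between heads and bodies of wild type, the log2 fold changes of 47 members and of their nearest coding genes had a Spearman rho of 0.16, and in the mutant, over 136 pairs, of 0.06. These are values across genes, which are not independent replicates and share libraries. Where both were called, the signs matched in 20 of 26 pairs in wild type and 54 of 73 in the mutant; of all coding genes called, 61.3% and 58.2% were lower in heads. The median log2 fold change of the coding neighbours was −0.60 and −0.96, that of all coding genes tested 0.09 and 0.13, and that of the members in these pairs −5.28 and −5.85. Between mutant and wild-type bodies rho was 0.01 over 136 pairs, and no pair had both genes called.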

How the data were processed

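The deposited files of the 12 libraries give the count of reads at each poly(A) position, by chromosome, strand and position, with no normalization; the authors aligned reads with Bowtie2 to build BDGP5, per the submitters' processing notes. No label tells which protocol served for which library. Genes came from the BDGP6 annotation (Ensembl release 115). No coordinate was converted: of positions with at least 200 pooled reads, 61.7% on the part of 2L used and 57.5% on that of 3L lay within 10 nt of an annotated transcript end, and 0.256% and 0.227% after a shift by 5000 nt. Coordinates are those at which both coincide.

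Reads from a gene's start to 200 nt past its end were counted on its strand. Positions claimed by 2 genes were left out. How reads matching several places were treated is not stated, so members with near-identical copies, and the 8 that overlap transposons, are uncertain. Counts are of reads without molecular identifiers, so floors (3 reads over a group) cover counting error only.

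Tests used edgeR 4.0.16 (R 4.3.3) with its quasi-likelihood test, TMM factors (0.636 to 1.27), the filterByExpr filter and Benjamini-Hochberg adjustment at 0.05 over all genes tested. The wild-type tissue contrast used 8 libraries and a block term. Genotype contrasts and the mutant tissue contrast used the 8 libraries of block 2 in 1 fit and so share libraries. Site choice compared reads at the distal and proximal of the 2 most used sites, with a term per library. A change in the level is a log2 fold change, one in site choice a log2 odds ratio. Alternatives were DESeq2 1.42.0, its size factors, no filter, all own-strand reads, reads to 1000 nt past the end, limma 3.58.1, other site settings, each library left out and the replicate block. Counting and figures used scipy 1.17.1, pandas 2.3.3 and numpy 2.4.6 under Python 3.11.15. The main edgeR tests were run on simulated counts, with known changes placed only where the mean was at least 20 reads. The alternatives were not run on simulated counts. The median member held 85 reads over 12 libraries, so the simulation does not cover most members.

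Members, lists and tests were chosen with earlier results of these data known. For each expression contrast the naming rule took the 8 highest and 8 lowest called members with at least 5 CPM in a group and no overlap between replicates, besides the 10 most read members, those with a name and hosts of small RNAs; for site choice it took called members and the 5 most read. CR44979, the ninth called higher in mutant bodies, was named after its values were seen. RpII215 lies on X and was not analysed here.

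Replicate numbers come from the sample titles. Deviations of same-numbered wild-type heads and bodies from their group means correlated (r = 0.716, 0.708, 0.724 and 0.666 over 2710 genes), which includes the difference between blocks; within blocks r was 0.620 for replicates 1 and 2, 0.0558 for 3 and 4, and 0.0224 for the mutant.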

Additional observations from a re-analysis of the deposited data

Results flagged for a closer look

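In 85 sets of 4 wild-type values, 18 had a value standing apart from the other 3. Its gap to the nearest, over the range, passed Dixon's critical value. That value is set for about 1 flag in 20 sets of normally distributed values. A set with 3 values at 0 and 1 above passes by construction, so the 18 cannot be compared with that rate. Values far above the rest at higher levels were CR42862 in body 2 (8125 CPM, the others 2315 to 2777), CR44490 in head 2 (208 CPM, the others 0 to 27.2) and CR43239 in head 3 (109 CPM, the others 0 to 15.1). CR45294 in body 2 (59.3 CPM, the others 10.1 to 15.3) and CR43713 in body 4 (57.0 CPM, the others 25.4 to 30.7) stood above the rest as well. CR42859 (10.4 CPM, the others 0 to 1.72) and CR44736 (6.93 CPM, the others 0) were flagged in head 2 on only 3 and 2 reads.

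At low levels, CR43761 (3.47 CPM) in head 2, CR43808 (2.09 CPM) in head 1, CR43857 (1.08 CPM) in head 4, CR44909 (4.29 CPM), CR45345 (0.858 CPM), CR45346 (0.858 CPM) and CR44491 (3.43 CPM) in head 3, and CR13130 (2.82 CPM) and CR43988 (2.82 CPM) in body 2 were read where the other 3 were at 0. Each of these values rests on only 1 to 5 reads. Lower than the rest were CR43761 in body 1 (4.50 CPM, the others 10.8 to 11.3) and CR44485 in body 2 (0 CPM, the others 0.839 to 0.902 on 1 read each).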

How the results depend on the processing

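Depth limits most of what can be said: the median member held 85 reads over 12 libraries, and many have none in heads. The counts below are of members, and shares called over all genes under the alternatives are not given. Without the filter on low counts 174 members were called between wild-type heads and bodies (54 with it), and leaving out 1 library gave 52 to 93, as fewer libraries let more members through the filter. In mutant bodies DESeq2 called 24 members (12 by edgeR) and leaving out 1 library gave 0 to 46; in mutant heads DESeq2 called 1, and the interaction gave 0 to 3. With the replicate block over all 12 libraries, mutant heads had 15 called members, mutant bodies 58 and 4 for site choice. These fits set the mutant against wild-type libraries of block 1, so block and genotype cannot be told apart in them. CR43356 then reversed in bodies (log2 −2.68). It had 114 and 117 CPM in mutant bodies, 500 and 633 in wild-type bodies of block 1 and 63.1 and 81.3 in those of block 2. CR43883 reversed in the mutant tissues with 1000 nt past the end (−0.34). limma called 4 members for site choice in wild type and 2 in mutant bodies; leaving out 1 library gave 0 to 1 and 1 to 7. In the other contrasts the replicate block kept counts within 1.5 times, with 55 members called between wild-type heads and bodies and 137 in the mutant. Of 796 values of named members under an alternative, 699 kept their direction and side of the threshold, 84 lost the call, 11 gained it and 2 reversed.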
